A study of Mus musculus with 8 samples.

Results

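In the RNA of sorted mouse sensory neurons, 10 genes of the extracellular matrix were followed, chosen by name out of the 22609 gene symbols of the read count files. They comprised 7 small leucine-rich proteoglycans (SLRPs), namely biglycan (Bgn), decorin (Dcn), asporin (Aspn), lumican (Lum), fibromodulin (Fmod), Prelp and osteoglycin (Ogn), and 3 matrix-associated genes, Islr, Mxra8 and Abi3bp. The study had named Abi3bp, Bgn, Mxra8 and Islr as female-selective in these same libraries and in neurons purified by Percoll gradient. It also reported higher female levels of Bgn, Mxra8 and Islr by quantitative RT-PCR. Its cut on fold change was not reached in the fit used here, where the folds were 1.91, 1.82, 1.64 and 1.63 in that order. The other 6 were added with the sex differences of these data known. The difference between females and males is therefore what the genes were selected on. It is described below as values and counts, with no p-value for any of the 10 genes, and supports nothing.

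The libraries came from naive young adult C57BL/6J mice, 4 females in the estrous phase and 4 males, in a study of how sensory neurons of the sexes differ. WGA-488, a fluorescent lectin that axons carry back to the cell body, was injected into both hindpaws and both thighs. The WGA+ neurons were then isolated from lumbar dorsal root ganglia (DRG), where the cell bodies of sensory neurons lie, by 2 rounds of fluorescence-activated sorting. No treatment separated the groups, and both carried the label and the injection. Neurons labelled from skin and from muscle were pooled, and the sort was on the injected label, not on a gene.

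SLRPs are secreted proteins with a core of leucine-rich repeats, most of which carry chondroitin, dermatan or keratan sulfate chains. They bind fibrillar collagens, set the width and spacing of collagen fibrils, and hold growth factors such as TGF-beta in the matrix. In nerves and ganglia, fibroblasts of the connective tissue sheaths are their best known source.

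Each library held 4.80 to 7.33 M gene reads (M, 1000000 reads), so that 3 reads, taken as the floor of detection, corresponded to 0.409 to 0.625 reads per M gene reads (CPM). Xist, transcribed from the inactive X chromosome, had 395 to 764 reads in each female and 0 to 6 in each male, and the Y-linked Ddx3y had 0 reads in females and 240 to 309 in males, as labelled. All 15 sensory neuron markers checked, among them Tubb3, Prph and Calca, had more than the floor in every library, with summed levels of 28031 to 38373 CPM in females and 29201 to 31452 in males. Satellite glial markers were also present, all 8 of them in every library, at 9373 to 12328 CPM in females and 3672 to 9138 in males. Female replicate 4 stood apart from the other females over all genes, with a chi-square per degree of freedom of 30.1 to 44.9 against them, where other pairs of one sex had at most 12.1. Male replicate 1 was lowest of the males for all 7 matrix genes that passed the filter on low counts. Values that move most when either library is left out are also given without it.

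The label "fibroblast" held for part of its defining markers only. Of 20 fibroblast markers, 12 reached the floor in every library. Twist2 had 0 reads in all 8 libraries, Dpt had 0 to 2 and Clec3b 0 to 3. Pdgfra, the receptor used most often to mark fibroblasts, had 3 to 29 reads per library, with the most in male replicate 1. Its level was 1.14 ± 0.473 CPM in females and 2.13 ± 1.23 in males (SD, n = 4 each). The collagen chain Col1a2 stood at 30.7 ± 7.71 CPM in females and 18.6 ± 6.47 in males (SD, n = 4 each). Col1a1, its partner in type I collagen, reached 194 reads (32.7 CPM) in female replicate 4 and at most 0.743 CPM in any male. That library set its female mean of 9.53 ± 15.4 CPM (SD, n = 4). The lowest female had 1.25 CPM, and Col1a1 did not pass the filter on low counts. Markers of macrophages summed to 2.87 to 7.98 CPM over the 8 libraries, and those of endothelium to 51.8 to 89.8 CPM. Of the 8 endothelial markers, 2 reached the floor in every library. Most of the endothelial sum was Egfl7, at 55.2 ± 10.3 CPM in females and 49.9 ± 2.35 in males (SD, n = 4 each). The genes are accordingly called matrix genes here and not fibroblast genes.

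Of the 10 genes 9 had reads and 7 passed the filter on low counts. The 3 that did not pass were Aspn, Fmod and Prelp. Aspn, an SLRP with a run of aspartates in place of the usual chains, had 0 reads in all 8 libraries, which allows at most 0.409 to 0.625 CPM per library (counting error only). Fmod, which binds collagen at an early stage of fibril growth, had 2, 1, 2 and 2 reads in the 4 females and 0, 4, 0 and 6 in the 4 males. Prelp, a heparin-binding SLRP that links basement membranes to collagen, had 1, 2, 3 and 2 reads in females and 1, 2, 0 and 3 in males. The sexes overlapped for both genes, part of the Prelp exons (350 bases) overlap Gm15851 on the other strand, and no fold change is given at such levels.

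Most of the SLRP genes lie in clusters, and neighbours in the clusters on chromosomes 10 and 13 were not detected alike. In build mm9, Dcn (10:96942245-96980777, plus strand) is followed after 47.4 kb by Lum (10:97028135-97035337), then by Kera and Epyc. Dcn had 134 to 253 reads per library and Lum 18 to 73, while Kera, the cornea gene keratocan, had 0 in every library and Epyc, known from growth cartilage, had 3 to 19. On chromosome 13, in the order Ecm2, Aspn (13:49639812-49662926), Omd and Ogn (13:49703440-49719869), all on the plus strand inside the span of Cenpp on the other strand, Ogn had 20 to 52 reads, Ecm2 at most 4, Omd at most 1 and Aspn 0. On chromosome 1, Optc, Prelp (1:135806881-135817991, minus strand) and Fmod (1:135933831-135944854, plus strand) had at most 6 reads each. Bgn (X:70728941-70741272), Islr (9:58004080-58006949, minus strand), Mxra8 (4:155213789-155218197) and Abi3bp (16:56477957-56690241) lie apart from the clusters.

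The promoters of Bgn, Ogn and Aspn are shown because they set the X-linked Bgn, which had reads in every library, beside the cluster neighbours Ogn and Aspn, of which the first had reads in every library and the second none. The sequences are the 250 bases before the RefSeq gene start in GRCm38.p6, a later build than that of the counts, at X:73483351-73483600, 13:49607765-49608014 and 13:49544193-49544442, each read 5′ to 3′ on the plus strand. Capitals mark matches on either strand to the TATA box (TATAAA), the GC box (GGGCGG), the CCAAT box (CCAAT) and the AP-1 site (TGACTCA).
Bgn: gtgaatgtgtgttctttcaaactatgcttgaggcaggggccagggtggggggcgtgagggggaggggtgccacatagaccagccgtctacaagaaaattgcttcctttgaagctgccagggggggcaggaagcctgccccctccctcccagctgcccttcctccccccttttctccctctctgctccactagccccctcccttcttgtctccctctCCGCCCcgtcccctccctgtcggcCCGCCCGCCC
Ogn: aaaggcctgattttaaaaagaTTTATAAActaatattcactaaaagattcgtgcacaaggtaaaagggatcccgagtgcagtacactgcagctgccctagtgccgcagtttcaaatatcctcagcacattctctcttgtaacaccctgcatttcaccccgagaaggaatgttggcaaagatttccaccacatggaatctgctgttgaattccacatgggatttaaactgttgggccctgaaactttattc
Aspn: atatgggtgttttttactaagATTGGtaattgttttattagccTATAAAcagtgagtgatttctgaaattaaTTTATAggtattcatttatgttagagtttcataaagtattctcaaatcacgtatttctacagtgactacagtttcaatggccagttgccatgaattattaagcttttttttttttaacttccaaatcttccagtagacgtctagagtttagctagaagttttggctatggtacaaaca
Bgn held 3 GC boxes, 34, 10 and 6 bases before the start, the last of which overlap, in a window of 64.4% G and C. Ogn, with 42.0% G and C, held 2 overlapping TATA matches 227 and 229 bases before the start. Aspn, with 30.0% G and C, held TATA matches 207 and 178 bases and a CCAAT match 229 bases before the start. Over all 32851 RefSeq promoters of this length the median was 52.4% G and C, and 32.7% held a GC box, 12.4% a TATA box, 33.8% a CCAAT box and 4.46% an AP-1 site. None of these windows held an AP-1 site. Of the other promoters found in the table, Prelp held a CCAAT box 15 bases before the start and Fmod, Islr and Mxra8 held none of the 4 motifs. Promoters of Dcn, Lum and Abi3bp were not used here. A match is a description of the letters and not of a bound site.

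Levels were ordered as CPM per kilobase of exon, so that genes of different length could be compared. Dcn led with 14.6 ± 3.53 CPM per kb (SD, n = 8), above 76.5% of the 16821 genes that had a read and a length. Mxra8, a cell surface protein with immunoglobulin domains that several alphaviruses use as a receptor, followed with 9.50 ± 3.25, and Bgn with 4.79 ± 1.89. Lum, the keratan sulfate proteoglycan of the cornea and many other tissues, had 3.69 ± 1.31 and Ogn, also called mimecan, 2.28 ± 0.716. Islr, a membrane-anchored protein of mesenchymal stromal cells also called Meflin, had 1.90 ± 0.717, and Abi3bp, a secreted protein with fibronectin type III domains, 0.831 ± 0.420. Fmod, at 0.101 ± 0.0910, and Prelp, at 0.0803 ± 0.0546, lay far lower, and Aspn was at 0.

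**Figure D1:**
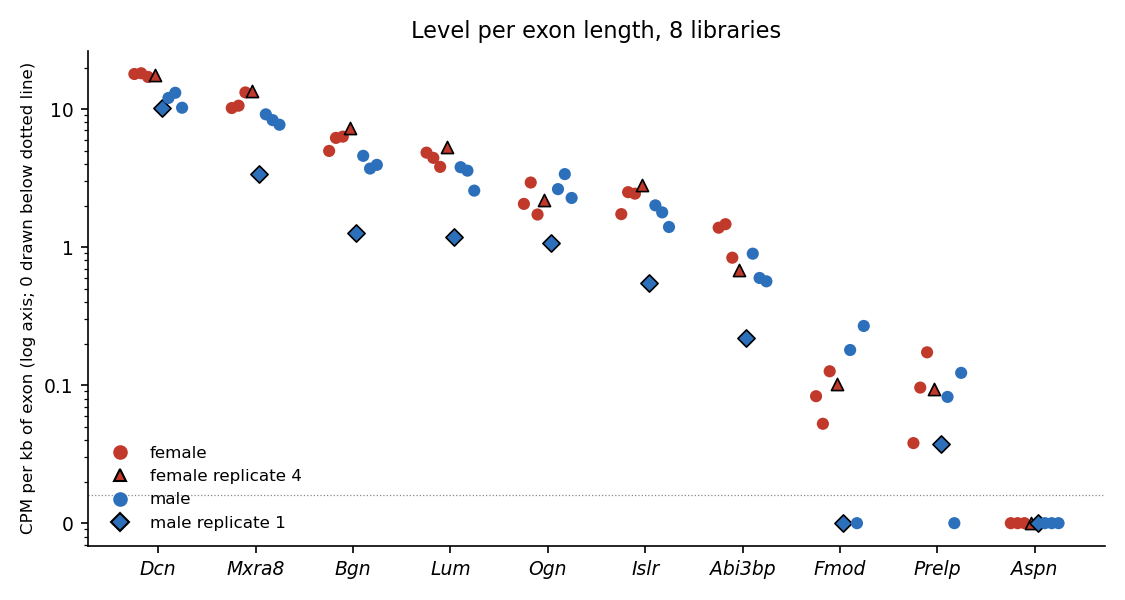
Level of each of the 10 matrix genes in CPM per kilobase of exon (log axis, values of 0 drawn below the dotted line), 1 point per library, females in red and males in blue. Dcn leads with a mean of 14.6, Abi3bp has 0.831, and Fmod and Prelp lie near 0.1 with Aspn at 0.

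The order held within the libraries for most neighbours. The upper member of the pair was higher in 8 of 8 libraries for Dcn over Mxra8, Mxra8 over Bgn, Bgn over Lum, Lum over Ogn, Islr over Abi3bp and Abi3bp over Fmod (two-sided exact sign-flip permutation test, p = 0.0078 each, the smallest that 8 libraries can give, adjusted p = 0.0117 over 9 pairs). The closest of these were Bgn and Lum, which differed by 0.34 ± 0.27 on the log2 scale (SD, n = 8). Ogn exceeded Islr in 6 of 8 libraries, by 0.31 ± 0.53 (exact permutation p = 0.141, adjusted p = 0.158), so that these neighbours did not differ beyond their spread. Both exceptions were females, and the female mean was 2.37 for Islr and 2.23 for Ogn, against 1.44 and 2.34 in males (CPM per kb). Fmod and Prelp were not told apart either, with Fmod higher in 4 of 8 (exact permutation p = 0.758). Prelp against Aspn (exact permutation p = 0.0156, adjusted p = 0.0201) rested on at most 3 reads and on the 0.5 read added before logarithms. On plain CPM, without division by length, 3 of 9 neighbouring pairs passed the threshold.

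Dcn, the SLRP that binds collagen and neutralizes TGF-beta, was measured at 34.8, 35.2, 33.1 and 34.4 CPM in the 4 females and 19.8, 23.3, 25.4 and 19.8 CPM in the 4 males. All females lay above all males, and the females lay closer together than the males. The log2 fold change, female over male, was 0.62 ± 0.13 (SE). In bulk libraries such as these, fewer cells of a type and less RNA per cell cannot be told apart.

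Bgn, the close relative of Dcn on the X chromosome, was measured at 17.7, 22.0, 22.5 and 26.1 CPM in females and 4.50, 16.3, 13.2 and 14.1 CPM in males. The groups did not overlap, and male replicate 1 was far below the other males. The log2 fold change was 0.86 ± 0.31 (SE). The ratio of the female to the male mean was 1.52 when male replicate 1 was left out.

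Mxra8 showed the same order, with 29.7, 30.9, 38.5 and 39.4 CPM in females and 9.82, 26.7, 24.3 and 22.5 CPM in males, with no overlap and a log2 fold change of 0.72 ± 0.26 (SE). Part of its exons, 211 bases, overlap Gm10562 on the other strand, and 7.27% of its 50-base windows recur there, so that its count is uncertain to that extent without the strand setting of the counting. Lum had 10.04, 9.20, 7.92 and 10.9 CPM in females and 2.46, 7.87, 7.43 and 5.32 CPM in males. Its groups were separated by 7.92 against 7.87 CPM, a gap that counting error alone could close, and its log2 fold change was 0.71 ± 0.31 (SE), or 0.46 without male replicate 1.

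Islr and Abi3bp overlapped between the sexes. Islr had 3.85, 5.55, 5.42 and 6.23 CPM in females and 1.23, 4.46, 3.96 and 3.11 CPM in males, so that 3 of 4 females lay above every male. Abi3bp had 6.87, 7.29, 4.17 and 3.37 CPM in females and 1.09, 4.46, 2.97 and 2.81 CPM in males, so that 2 of 4 did. Their log2 fold changes were 0.71 ± 0.35 and 0.93 ± 0.40 (SE), or 0.43 and 0.66 without male replicate 1. Abi3bp had the largest estimate and the largest error of the 7 genes in the fit with all libraries. Bgn had a larger estimate in some other fits, such as 0.96 against 0.80 without female replicate 1. Abi3bp rested on 8 to 50 reads per library and Islr on 9 to 37.

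Ogn was the exception, with no clear direction. It had 5.22, 7.46, 4.37 and 5.56 CPM in females and 2.73, 6.68, 8.59 and 5.77 CPM in males, the groups overlapped, and the log2 fold change was -0.08 ± 0.32 (SE). Without male replicate 1 the female mean was 0.806 of the male mean. The log2 fold change turned to 0.15 without male replicate 3 and to 0.01 without female replicate 3.

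**Figure D2:**
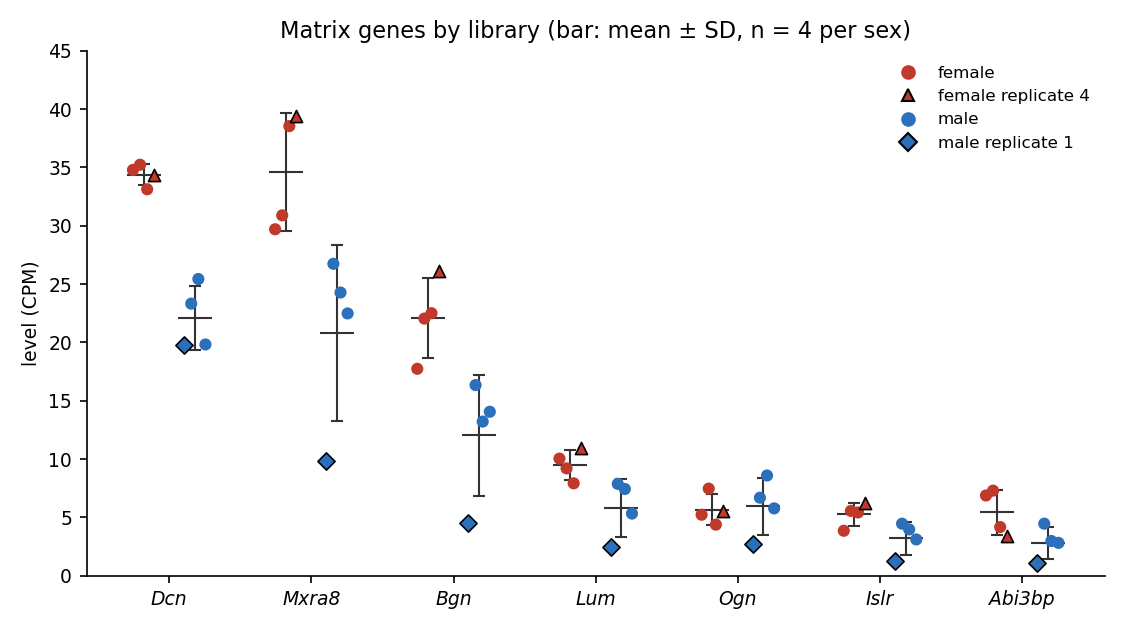
Level in CPM of the 7 matrix genes that passed the filter, 1 point per library, females in red and males in blue, with mean ± SD (n = 4 per sex). Dcn, Mxra8, Bgn and Lum do not overlap between sexes, Ogn overlaps, and male replicate 1 (diamond) is the lowest male for every gene.

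Counted together, 6 of the 7 genes had a log2 fold change above 0, where 50.7% of the 12512 genes tested did, and their median was 0.71 against 0.00341 for all genes. All 4 females lay above all 4 males for 4 of the 7, where 2.98% of all genes showed this. At an unadjusted p under 0.05 in the edgeR quasi-likelihood test, 5 of 7 were higher in females (4.43% of all genes). After Benjamini-Hochberg adjustment over all genes edgeR called 0 of 7 (0.0400% of all genes, 5 in number) and DESeq2 called 1, Dcn (0.336% of all genes). Since the genes were selected on this contrast, nothing is read from these counts.

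Male replicate 1 decided much of the size of the differences. Its level was 0.310 of the mean of the other males for Bgn, 0.357 for Lum, 0.389 for Ogn, 0.320 for Islr, 0.401 for Mxra8 and 0.320 for Abi3bp, but 0.866 for Dcn. Without it, the median log2 fold change of the 7 genes was 0.49, with Dcn, Bgn, Mxra8 and Lum still free of overlap. Without both male replicate 1 and female replicate 4 the median was 0.42.

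The make-up of the reads showed the same departure of Dcn. Dcn took 25.7% to 32.0% of the reads of the 10 genes in 7 libraries and 47.4% in male replicate 1 (145 of 306 reads, 95% Wilson interval 41.9 to 53.0%, counting error only). The highest of the other 7, female replicate 1, had 32.0% (95% Wilson interval 28.9 to 35.4%). Bgn took a smaller share there, with 15.4% to 20.6% in 7 libraries and 10.8% in male replicate 1 (95% Wilson interval 7.78 to 14.8%). Together the genes made up 108.6 to 126.7 CPM in females and 41.7 to 90.8 CPM in males.

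**Figure D3:**
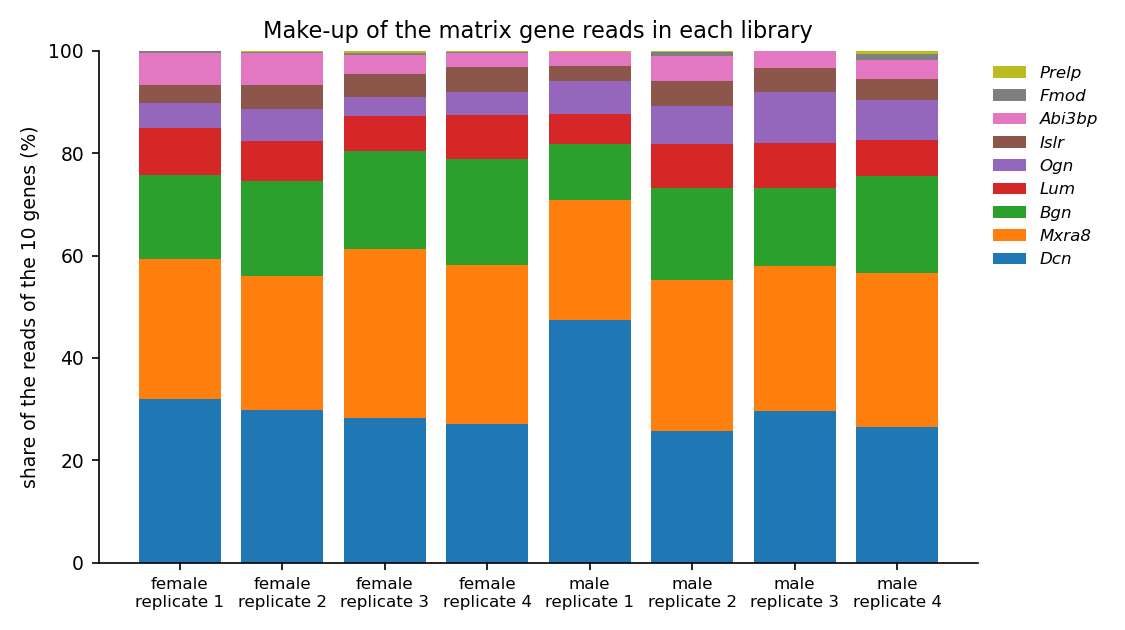
Share (%) of each gene in the summed reads of the 10 matrix genes, 1 bar per library. Dcn takes 47.4% in male replicate 1 and 25.7% to 32.0% in the other 7 libraries.

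The genes also differed in how far libraries of one sex varied. Dcn varied little more than counting allows, with a chi-square per degree of freedom within sex of 1.21, where counting error alone gives 1. It was 0.123 among the females and 2.29 among the males. Bgn had 9.88 and Mxra8 12.1, which became 2.60 and 3.21 without male replicate 1. The median of the 7 genes was 4.31, with 1.65 in females and 6.97 in males, and 1.74 without male replicate 1. Over the 5051 genes in the same range of mean CPM it was 3.28, with 3.65 in females and 1.99 in males, and 3.07 without male replicate 1.

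Markers of some other cells moved with the matrix genes and those of others did not. The satellite glial sum, dominated by the lipid carrier Apoe, was 9373 to 12328 CPM in females and 3672 to 9138 in males with no overlap, and male replicate 1 had 0.462 of the mean of the other males, against 0.498 for the sum of the 10 matrix genes. Schwann cell markers summed to 2403 to 3152 CPM in females and 1936 to 2519 in males, with male replicate 1 at 0.797 of the other males. The largest part of that sum was Pmp22, at 1100 ± 158 CPM in females and 1165 ± 96.0 in males (SD, n = 4 each). Male replicate 1 was the highest male for Pmp22, at 1259 CPM. The log2 fold change of Pmp22 was -0.10 ± 0.12 (SE), while 7 of the 8 Schwann markers tested were above 0 (50.7% of all genes). Of the Schwann markers 8 of 9 reached the floor in every library, with Mag at 0 to 14 reads. Sox10, a glial transcription factor, had a log2 fold change of 1.64 ± 0.38 (SE, edgeR adjusted p = 0.413). Perineurial markers, 5 of 5 detected, summed to 124 to 136 CPM in females and 106 to 122 in males. The fibroblast sum went the other way, with 4062 to 4851 CPM in females and 5424 to 6203 in males, but most of it was Fstl1, a secreted glycoprotein, at 3875 ± 397 CPM in females and 5107 ± 470 CPM in males (SD, n = 4 each). Without Fstl1, which was left out after its values were seen, it was 672 to 782 CPM in females and 397 to 632 in males, with male replicate 1 at 0.669 of the other males. Pericyte and smooth muscle markers, 3 of 8 at the floor or above in every library, summed to 43.5 to 85.9 CPM in females and 74.0 to 98.6 in males, with male replicate 1 at 1.21 of the other males. The sums of the endothelial and sensory neuron markers overlapped between sexes, and male replicate 1 had 0.994 and 0.954 of the other males. Within the neuron list, 8 of 15 had a log2 fold change above 0 (50.7% of all genes), with a median of 0.03. The heavy neurofilament Nefh had 1108 ± 465 CPM in females and 500.2 ± 157 in males (SD, n = 4 each), with 279.96 in male replicate 1, the lowest, and a log2 fold change of 1.13 ± 0.33 (SE, edgeR adjusted p = 0.600). Calca ran the other way, with a log2 fold change of -0.35 ± 0.13 (SE, edgeR adjusted p = 0.656). For Calca male replicate 1 was the highest male, at 4865 CPM. Macrophage markers, 2 of 9 at the floor or above in every library, summed to 3.44 to 7.98 CPM in females and 2.87 to 6.06 in males, with male replicate 1 at 0.504 of the other males. The part of the perineurial, fibroblast and macrophage markers in the levels of the matrix genes was not tested.

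With the level of the glial markers as a covariate in the edgeR fit, the median log2 fold change of the 7 genes was 0.13 in place of 0.71, and 5 of 7 were above 0. Dcn kept 0.50 ± 0.17 (SE), Abi3bp had 0.41 ± 0.46 and Bgn 0.15 ± 0.23, Islr was at -0.04 ± 0.27 and Ogn at -0.67 ± 0.28. With the covariate kept, the median was 0.34 without male replicate 1 and 0.10 without female replicate 4. In the former fit Abi3bp had 0.91 ± 0.54, Dcn 0.43 ± 0.24 and Bgn 0.37 ± 0.31 (SE). Islr was there at -0.08 ± 0.40 and Ogn at -0.63 ± 0.40. The covariate was the mean log2 level of the satellite glial and Schwann markers. Of the 8 satellite glial markers, 0 were called by edgeR and 0 by DESeq2, Apoe alone had an unadjusted p under 0.05 in edgeR, and their median log2 fold change was 0.31, or 0.16 without male replicate 1. Of the 8 Schwann markers tested, 0 were called by edgeR and 1, Sox10, by DESeq2, 4 had an unadjusted p under 0.05 and were higher in females (4.43% of all genes), and their median was 0.45, or 0.29 without male replicate 1. Sex and glial level cannot be told apart fully in this fit.

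**Figure D4:**
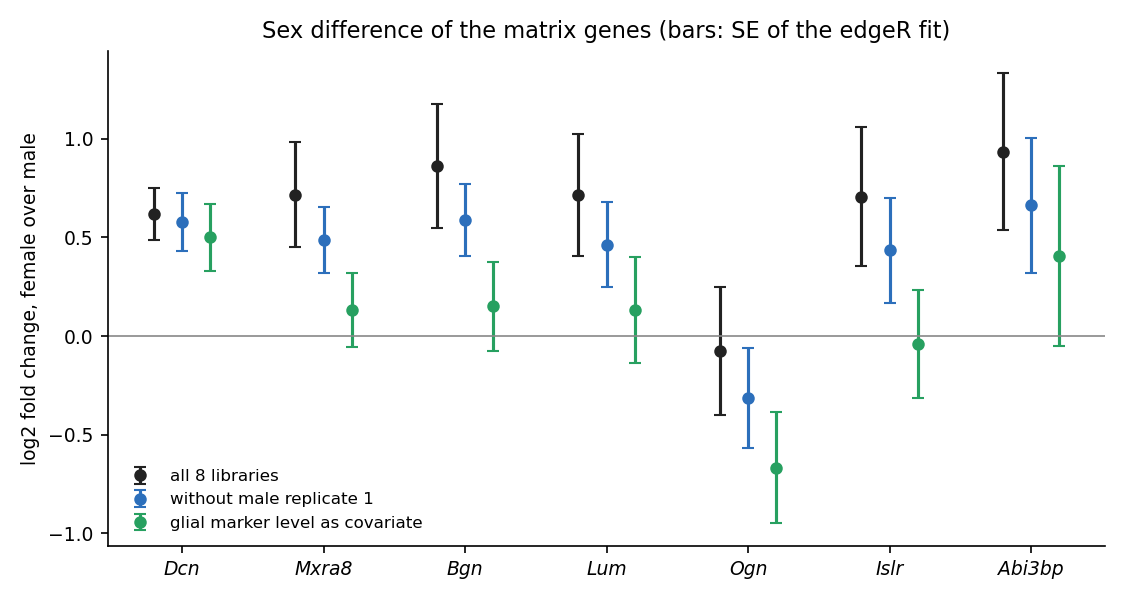
Log2 fold change, female over male, of the 7 matrix genes in 3 edgeR fits, with SE. Dcn stays between 0.50 and 0.62, whereas Bgn runs from 0.86 with all libraries to 0.15 with the glial covariate and Ogn from -0.08 to -0.67.

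Other genes of the same pathway, chosen by function, were tested over all genes with edgeR, and none of 69 that passed the filter out of 110 listed was called. At an unadjusted p under 0.05, 8 were higher in females and 5 in males (4.43% and 2.64% of all genes), and DESeq2 called 0. These all-gene shares are the background for the counts of each list that follows. Among 11 other SLRPs, Chadl, a collagen-binding relative of chondroadherin, was the only gene to pass the filter, with 7.81 ± 0.693 CPM in females and 5.43 ± 0.275 in males (SD, n = 4 each) and a log2 fold change of 0.50 ± 0.18 (SE, edgeR adjusted p = 0.637). Its 4 females lay above its 4 males.

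The enzymes that build the sulfated sugar chains were measured well and were centred near 0. Of 26 listed, 21 passed the filter, none was called, 3 had an unadjusted p under 0.05 with higher levels in females and 2 with higher levels in males, and their median log2 fold change was 0.05. Chst1, a keratan sulfate sulfotransferase, had 2.63 ± 0.333 CPM in females and 1.21 ± 0.448 in males (log2 fold change 1.11 ± 0.32, edgeR adjusted p = 0.600). Chpf, which extends chondroitin chains, had 182 ± 50.6 and 116 ± 10.4 CPM (log2 fold change 0.62 ± 0.19, edgeR adjusted p = 0.637), and it was called when female replicate 1 was left out. Chst12, a chondroitin sulfotransferase, had a log2 fold change of 0.10 ± 0.14, and of -0.04 without female replicate 4.

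Genes that assemble and crosslink collagen fibrils, 22 of 28 tested, had a median of 0.08 with none at an unadjusted p under 0.05. Loxl1, a lysyl oxidase, had the largest difference of those named, 0.70 ± 0.32, and Pcolce, which promotes procollagen cleavage, had 0.49 ± 0.24. The abundant enzymes P4hb and Plod3, which modify collagen in the endoplasmic reticulum of many cells, had 0.07 ± 0.10 and -0.05 ± 0.12, both within their SE of 0.

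Receptors and ligands that SLRPs bind, 14 of 25 tested, had a median of -0.13, with 0 higher in females and 2 higher in males at an unadjusted p under 0.05. Tlr4, through which soluble biglycan signals, had 3.98 ± 1.56 CPM in females and 6.99 ± 2.16 in males (log2 fold change -0.84 ± 0.33, edgeR adjusted p = 0.660). Cd44, a hyaluronan receptor, had -0.43 ± 0.18 (edgeR adjusted p = 0.679) and the integrin chain Itgb1 -0.36 ± 0.22, which was -0.15 without female replicate 4.

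The fibroblast markers, 11 of 20 tested, had a median of 0.60 with 4 higher in females and 1 higher in males at an unadjusted p under 0.05, and 0.25 without male replicate 1. Col1a2 had a log2 fold change of 0.71 ± 0.27 (edgeR adjusted p = 0.651), Col6a2 of 0.81 ± 0.31, the peptidase inhibitor Pi16 of 0.65 ± 0.28 and Fbln2 of 0.67 ± 0.32 (0.42 without male replicate 1). Fstl1 had -0.42 ± 0.11 (edgeR adjusted p = 0.563) and Cd34 -0.05 ± 0.14, while 9 of the 11 were above 0 (50.7% of all genes). Pdgfra, lower in females than in males, did not pass the filter.

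The genes that varied most like the matrix genes among libraries of one sex were sought over 4391 genes, with each gene centred on its sex so that the sex contrast did not enter. The 5 closest to the mean of the 7 matrix genes were Ttyh1, Fxyd3, Dbi, Dhh and Sepp1, whose root mean square differences over the 8 libraries were 0.0648 to 0.0928 on the log2(CPM + 1) scale. In that mean, male replicate 1 deviated by -0.79, with male replicates 2, 3 and 4 at 0.40, 0.31 and 0.08, and the females lay between -0.08 and 0.10. Male replicate 1 held the largest deviation of all 6 profiles. When it was left out, 0 of the 5 remained among the 5 closest, and 2 did without female replicate 4, so that the likeness was not stable. The genes compared also changed, to 4105 and 2427 in turn, and no other library was left out here.

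**Figure D5:**
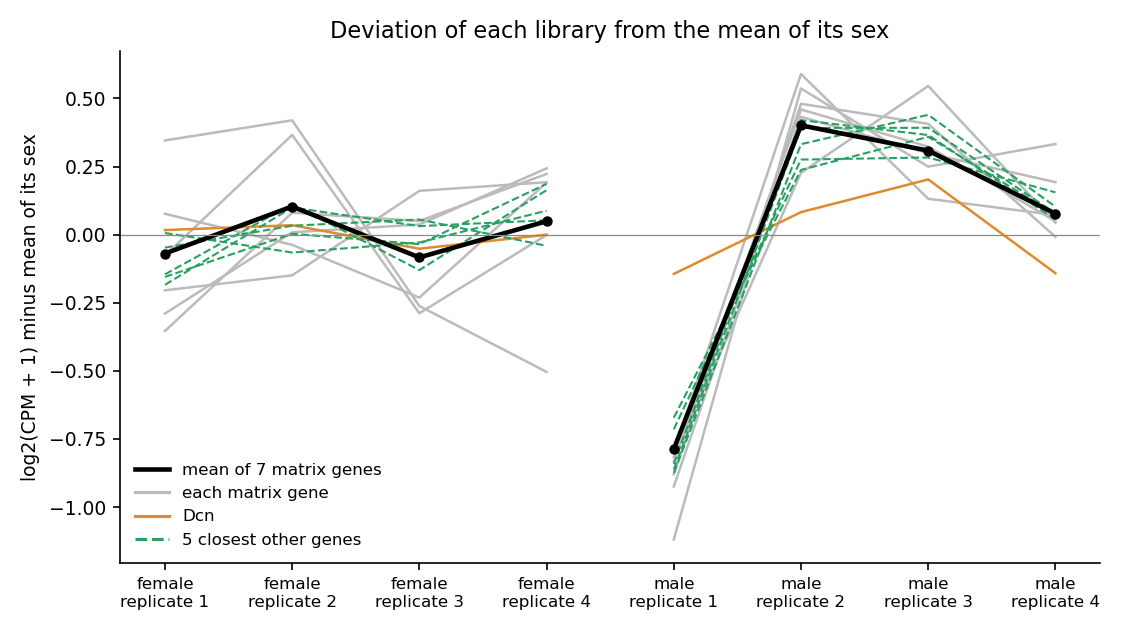
Deviation of log2(CPM + 1) in each library from the mean of its sex, for the mean of the 7 matrix genes (black), each gene (grey), Dcn (orange) and the 5 closest other genes (green, dashed). The mean lies at -0.79 in male replicate 1 and within -0.08 to 0.10 in the females, while Dcn lies at -0.14 in male replicate 1.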

How the data were processed

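RNA of WGA-488-labelled DRG neurons was amplified with oligo-dT priming (SMART-seq2) and sequenced as single 50-base reads. The authors aligned the reads to mm9 with TopHat2 and counted them per gene with HTSeq-count. The deposited values are these raw counts, without normalization. Versions, annotation release and strand option were not given in the sources used here. Reads without a feature, 57.8% to 60.5% of the uniquely aligned reads of each library, were left out of library sizes. Counts were made without molecular identifiers, so that floors and intervals cover counting error only.

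The counts were fitted with edgeR 4.0.16 under R 4.3.3, by its quasi-likelihood test (TMM, default expression filter, sex as the only term, Benjamini-Hochberg adjustment over 12518 genes, threshold 0.05). Setting aside Xist, Tsix and the Y-linked genes left 12512 for counts of calls. DESeq2 1.42.0 was an alternative. The others were DESeq2 size factors, library size alone, no filter, the replicate block, the glial marker level as a covariate and leaving out each library. Leaving out male replicate 1 with female replicate 4, either of them in the covariate fit and in the likeness, and Fstl1 from the fibroblast sum, were chosen after seeing the data. The fit was tested on simulated data.

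Exon lengths and positions came from GENCODE M1 (NCBIM37) and promoters from RefSeq (GRCm38.p6). The promoter set used here held 7 of the 10 genes. Likeness was computed over genes with a mean of at least 1 CPM and an SD of at least 0.3. The genes named were the 10 members, for each list those called, the 2 with the smallest unadjusted p and the 2 with the highest level, the defining markers and the 5 closest in pattern. The members and lists were chosen with earlier results of these data known. Nothing in the sources used here names a sequencing or preparation batch.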

Additional observations from a re-analysis of the deposited data

Results flagged for a closer look

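Of 34 groups of 4 libraries examined, 4 had a library far from the others of its sex by Dixon's criterion, where chance gives about 1 in 20. Female replicate 4 had the lowest fibroblast marker sum of the females, 4062 CPM against 4754 to 4851. Its satellite glial sum was the highest, 12328 CPM against 9373 to 9793, as was its endothelial sum, 89.8 CPM against 52.3 to 57.6. Egfl7 alone held 70.6 CPM of that endothelial sum. Male replicate 1 had the highest fibroblast sum of the males, 6203 CPM against 5424 to 5525, although it was the lowest male for all 7 tested matrix genes. With Fstl1 left out, the fibroblast sum of male replicate 1 was the lowest of the males, 397 CPM against 559 to 632, and that of female replicate 4 the highest of the females, 782 CPM against 672 to 772.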

How the results depend on the processing

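The median log2 fold change of the 7 genes stayed above 0 under all 17 alternatives. It was 0.13 with the glial covariate, 0.0975 with that covariate and female replicate 4 left out, 0.49 to 0.91 with each library left out in turn and 0.42 without both male replicate 1 and female replicate 4. Without the expression filter the median over 9 genes, Fmod and Prelp included, was 0.70, and over the 7 it was 0.71. The number of genes above 0 ranged from 6 to 7, and of those without overlap from 4 to 5, when libraries were left out. Bgn, Dcn, Lum, Mxra8 and Abi3bp were above 0 in 17 of 17 alternatives, Islr in 14 and Ogn in 2. In the fit over all genes, 5 genes were called (1 higher in females, 4 in males). DESeq2 called 42 (21 and 21). EdgeR with the glial covariate called 0, with 305 genes at an unadjusted p under 0.05, and 0 (155) and 2 (900) when male replicate 1 and female replicate 4 in turn were also left out. Leaving out libraries gave 1 to 78, with 78 without female replicate 1 (68 higher in females, 10 in males), 2 without female replicate 2, 3 without male replicate 1, 3 without male replicate 2 and 1 without male replicate 4. The cause was not tested. Of the 69 other matrix genes 0 to 1 was called with a library left out, the 1 being Chpf without female replicate 1. On plain CPM, 3 neighbouring pairs of the level order passed in place of 7, since division by length was dropped, and 6 to 7 passed with a library left out. The ratio of the female to the male fibroblast sum was 0.817, and 1.36 without Fstl1.

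Libraries with the same replicate number share only that number. The correlations of their deviations were 0.0939, -0.109, 0.144 and 0.00476, and not every library correlated best with its own number. With the replicate block, 1 gene was called and the median log2 fold change of the 7 genes was 0.79. Depth limits the statements on Aspn, Fmod and Prelp, which lie at or near the floor of 3 reads.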
